A study of Mus musculus with 34 samples.

Results

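Potassium channels are membrane pores that let potassium leave or enter cells, and they are encoded by genes whose symbols begin with Kcn. All genes with such a platform symbol were taken, whatever their values, with 1 probe set per gene, the one with the highest mean over all arrays. This gave 84 genes, represented by 167 probe sets, among 18194 genes that the array names by 1 symbol. A probe set was tested where its log2 signal reached 4 in at least 4 arrays. By this filter 53 of the 84 genes were tested, of 11990 genes tested in all. The members were 13 Kv1 to Kv4 genes (Kcna to Kcnd), 3 Kcnq, 6 Kcnh, 9 silent subunit, 15 Kcnj, 12 Kcnk, 8 Kcnm and Kcnn, 3 Kcnt and Kcnu, and 12 auxiliary subunit genes, and 3 antisense transcripts.

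The arrays measured RNA of thoracic spinal cord from trkB.T1 KO mice, which lack the truncated form of the neurotrophin receptor TrkB, and from trkB.T1 WT mice. All were C57BL/6J (backcrossed for more than 20 generations) and 8 to 12 weeks old. The KO groups were day 1 (4 arrays), day 3 (5 arrays) and day 7 (4 arrays) after a moderate contusion and a control group labelled sham (4 arrays). The WT groups were day 1 (5 arrays), day 3 (4 arrays) and day 7 (4 arrays) after the same injury and sham (4 arrays). Sham stands here for the labelled control group, and precision is limited by how few arrays each group holds. Values are GCRMA signals on the log2 scale, from 2.17 to 15.9, and a level near 2.17 lies at the floor of the scale.

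Each of the 34 arrays was closest to the mean of its own stage, and 21 were closest to that of their own stage and genotype. Day 3 KO replicate 3 and day 3 WT replicate 2 stood farthest from their groups, with root mean square deviations of 0.645 and 0.651 on the log2 scale. The library labelled sham KO replicate 2 read 9.46 and 8.59 on a pair of Ntrk2 probe sets, where the other KO arrays read at most 4.94 and 2.83 and the WT arrays at least 10.01 and 8.64. Several results are also given without these 3 arrays. The titles set the groups. For 2 of the arrays titled day 1 WT, other label fields name day 7 or sham. RNA quality moved with time: the 3′ minus 5′ difference of actin control probes ran from 1.22 to 1.81 in day 3 KO and 1.99 to 2.14 in sham KO, and from 1.39 to 1.54 in day 3 WT and 1.8 to 2.05 in sham WT. That of Gapdh control probes ran from 0.2 to 0.32 on day 1, 0.18 to 0.52 on day 3 and 0.43 to 0.46 on day 7 in KO, against 0.06 to 0.12 in sham KO. In WT it ran from 0.26 to 0.32, 0.17 to 0.23 and 0.11 to 0.57, against 0.03 to 0.1 in sham WT. The part of RNA quality in the channel results was not tested.

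In the nervous system the voltage-gated classes Kv1 to Kv4, Kcnq and Kcnh end action potentials and set how often neurons fire. Kcnj channels pass inward current, act downstream of G proteins in neurons, and clear potassium from around neurons in astrocytes. Kcnk channels carry the resting leak, and Kcnm and Kcnn channels open with calcium. Auxiliary Kcnab, Kcne and Kcnip proteins bind the pore subunits and change how many reach the membrane or how they gate.

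The sequences just upstream of 5 members are shown because these genes carry the main patterns: Kcnn4, Kcne1l and Kcnj8 were called higher after injury, and Kcnj3 and Kcnc1 lower. Each is the run of 250 bases before the gene's start in RefSeq, build GRCm38.p6, given 5′ to 3′ on the gene's strand, with GC boxes (GGGCGG or its reverse complement CCGCCC) in capitals. Kcnn4 is at chr7:24370013-24370262 (plus strand), Kcne1l at chrX:142306199-142306448 (minus strand), Kcnj8 at chr6:142571615-142571864 (minus strand), Kcnj3 at chr2:55435720-55435969 (plus strand) and Kcnc1 at chr7:46396218-46396467 (plus strand).
Kcnn4: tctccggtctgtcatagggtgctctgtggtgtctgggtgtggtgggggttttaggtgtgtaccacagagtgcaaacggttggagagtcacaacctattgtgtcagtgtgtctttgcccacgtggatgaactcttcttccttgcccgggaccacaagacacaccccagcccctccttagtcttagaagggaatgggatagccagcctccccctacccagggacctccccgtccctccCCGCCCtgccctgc
Kcne1l: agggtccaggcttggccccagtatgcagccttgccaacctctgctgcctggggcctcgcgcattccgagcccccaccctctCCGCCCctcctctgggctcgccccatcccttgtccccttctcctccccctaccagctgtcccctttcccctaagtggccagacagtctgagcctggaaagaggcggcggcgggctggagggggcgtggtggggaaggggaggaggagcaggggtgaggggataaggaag
Kcnj8: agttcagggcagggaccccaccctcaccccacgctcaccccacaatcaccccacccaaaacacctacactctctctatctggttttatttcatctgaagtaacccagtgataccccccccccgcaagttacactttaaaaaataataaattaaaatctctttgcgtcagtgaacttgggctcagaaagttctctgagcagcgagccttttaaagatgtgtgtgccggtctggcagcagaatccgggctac
Kcnj3: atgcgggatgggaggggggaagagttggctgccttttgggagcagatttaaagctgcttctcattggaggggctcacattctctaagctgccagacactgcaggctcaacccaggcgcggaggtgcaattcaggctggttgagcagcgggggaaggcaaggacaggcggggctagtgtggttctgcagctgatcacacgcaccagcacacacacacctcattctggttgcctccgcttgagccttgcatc
Kcnc1: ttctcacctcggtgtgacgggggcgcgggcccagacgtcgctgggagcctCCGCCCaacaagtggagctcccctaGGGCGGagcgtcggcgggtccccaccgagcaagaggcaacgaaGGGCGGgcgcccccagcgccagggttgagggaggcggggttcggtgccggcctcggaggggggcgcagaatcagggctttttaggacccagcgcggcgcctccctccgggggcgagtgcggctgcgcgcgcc
The Kcnc1 window holds 3 GC boxes and 30 CpG dinucleotides, with a GC content of 74.4%. The Kcnn4 and Kcne1l windows hold 1 GC box each, at GC contents of 58.8% and 68.0%, and the Kcnj8 and Kcnj3 windows hold none. On both strands, a GC box was present in 44.9% of 89 windows of the 64 Kcn genes with an entry and in 32.7% of all 32851 windows. The median GC content was 58.8% for the Kcn windows and 52.4% for all windows. An AP-1 motif (TGANTCA) was in 4.49% of Kcn windows and 6.75% of all, a STAT motif (TTCNNNGAA) in 7.87% and 7.02%, a PU.1 core (GAGGAA) in 25.8% and 23.3%, and a TATA box (TATAAA) in 3.37% and 12.4%. The 5 windows shown held no match of these other motifs, so different motifs could not overlap there. A match describes the letters only, and Kcnk6 has no entry.

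After contusion more potassium channel genes were called lower than higher in both genotypes, and most were called lower at day 3 and day 7. Of the 53 tested genes, 25 were lower in KO cords at day 1, 40 at day 3 and 31 at day 7 than in KO sham, and 30, 40 and 38 were lower in WT cords than in WT sham at the same days. In the limma fit, with Benjamini-Hochberg adjustment over all 24573 tested probe sets and a threshold of 0.05, the share of all tested genes called lower was 26.3%, 38.4% and 30.1% in KO and 31.8%, 37.0% and 32.6% in WT. The members' shares were 47.2%, 75.5% and 58.5% in KO and 56.6%, 75.5% and 71.7% in WT. Higher calls numbered 3, 3 and 3 in KO and 2, 4 and 3 in WT, against 23.1%, 30.7% and 22.9% of all tested genes in KO and 26.6%, 29.0% and 25.4% in WT. The members' shares were 5.66% at each day in KO, and 3.77%, 7.55% and 5.66% in WT. Without the 3 arrays that stood apart, 29, 40 and 36 members were lower in KO and 35, 39 and 39 in WT, and 3, 3 and 3 were higher in KO and 4, 5 and 4 in WT. With the 2 conflicting arrays grouped by their other labels, WT day 1 held 18 lower and 2 higher members.

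The median log2 difference over the members was −0.496 at day 1, −1.08 at day 3 and −0.625 at day 7 in KO, where all tested genes had medians of −0.05, −0.062 and −0.064. In WT it was −0.585, −0.954 and −0.805, against −0.05, −0.061 and −0.058 over all genes. In these bulk samples fewer cells of a type and less RNA per cell cannot be told apart. The mean level of 12 neuron markers moved with these falls: it ran from 11.89 to 12.04 in sham KO, 11.56 to 11.82 on day 1, 10.56 to 11.5 on day 3 and 11.4 to 11.46 on day 7. In WT it ran from 11.95 to 11.97, 11.45 to 11.75, 11.06 to 11.39 and 11.27 to 11.43 at the same stages. None of the 12 neuron markers lay below the filter, and 11 of them were called lower at day 3 in each genotype, with medians of −0.937 in KO and −0.743 in WT. The remaining marker, Gap43, was called higher there, at 0.622 in KO and 0.387 in WT. At day 1, 2 were lower and 1 higher in KO (median −0.241), and 6 were lower and 1 higher in WT (median −0.237). At day 7, 10 were lower and 1 higher in KO, and 11 were lower and 0 higher in WT. The part of this shift in the channel results was not tested.

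**Figure D1:**
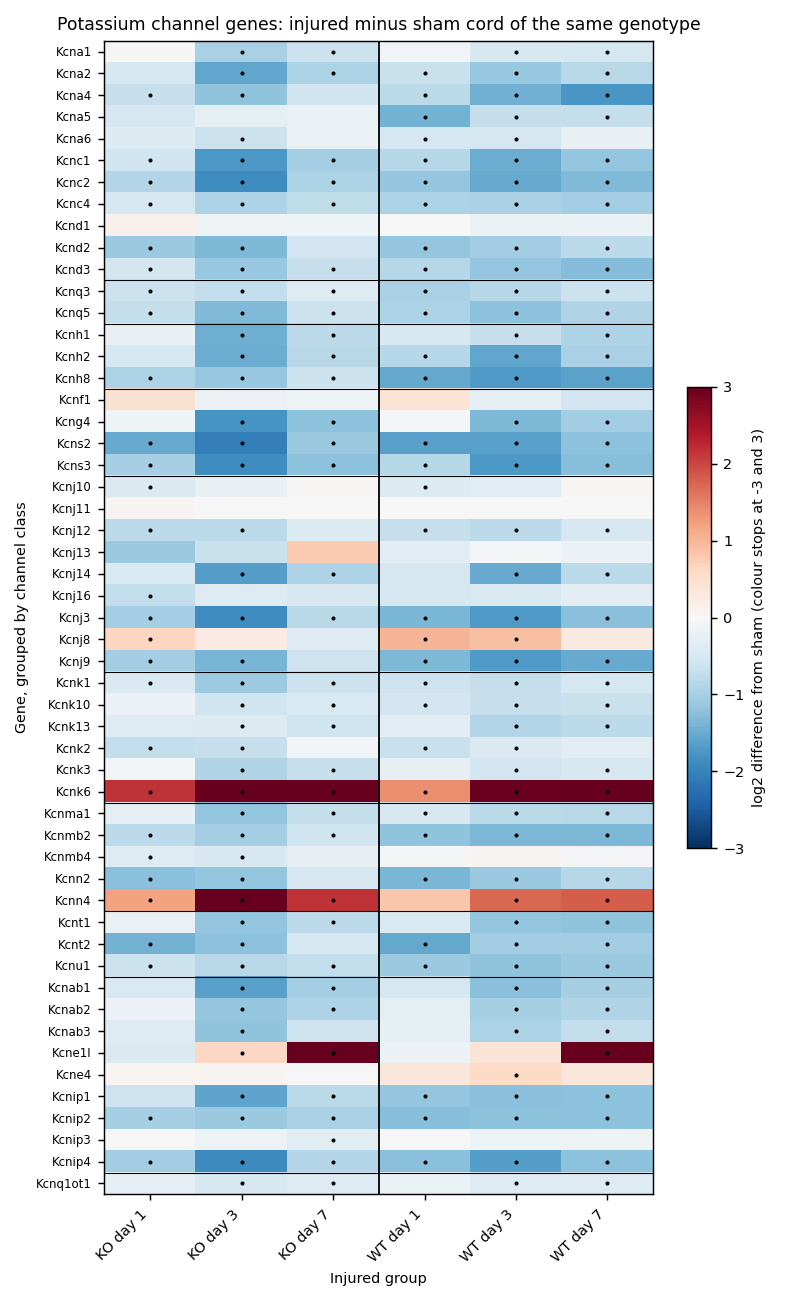
Log2 difference between injured and sham cords of the same genotype for the 53 tested potassium channel genes (rows, with lines between channel classes), KO on the left and WT on the right; colour gives the difference, and a black dot marks an adjusted p under 0.05. Blue (lower after injury) fills most rows at day 3, where 40 genes in KO and 40 in WT were called lower, while Kcnk6 and Kcnn4 are red at every day, Kcne1l most at day 7, and Kcnj8 is red at day 1.

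The genes called lower in all 6 comparisons with sham numbered 15 of 53: Kcnc1, Kcnc2, Kcnc4, Kcnd3, Kcnh8, Kcnip2, Kcnip4, Kcnj3, Kcnk1, Kcnmb2, Kcnq3, Kcnq5, Kcns2, Kcns3 and Kcnu1. They span the fast-spiking Kv3 channels, the M-current genes, a G protein-gated channel, silent subunits and auxiliary proteins. Of these, Kcnip2 and Kcnh8 passed the filter wholly or mainly through their sham arrays, the group where they were high. Of all tested genes 12.6% were lower in all 6. Kcnk6 was the 1 gene called higher in all 6, as 11.0% of all tested genes were. Kcnd1, Kcnf1, Kcnj11 and Kcnj13 were called in none (4 genes), where 11.1% of all tested genes were, and no gene was called in opposite directions in the 2 genotypes (0). Among the 43 genes called lower at any day in KO, 36 had their lowest mean at day 3, 5 at day 1 and 2 at day 7. Of all tested genes 46.9% were lower at any day in KO, and 63.9%, 20.3% and 15.7% of those had their lowest mean at day 3, day 1 and day 7. Among the 41 such members in WT, these numbers were 25, 8 and 8. In WT 46.4% of all tested genes were lower at any day, with 51.6%, 23.4% and 24.9% lowest at the same days.

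Kcnk6 (Entrez gene 52150, chromosome 7) encodes a tandem-pore channel known as a route of potassium efflux from mouse macrophages. In KO the signal was 4.34, 3.91, 3.91 and 4.51 in sham, 6.65, 6.45, 6.02 and 6.24 at day 1, 8.29, 8.02, 8.12, 8.65 and 7.92 at day 3, and 8.44, 8.25, 8.41 and 8.25 at day 7. In WT it was 4.17, 4.74, 5.12 and 5.13 in sham, 6.22, 5.96, 5.65, 6.39 and 6.7 at day 1, 8.02, 7.5, 7.64 and 7.89 at day 3, and 8.35, 8.33, 8.22 and 8.37 at day 7. In both genotypes every injured array lay above every sham array of the same genotype, and the arrays at day 3 and day 7 lay above those at day 1. The difference from KO sham was 2.17 ± 0.20 (log2 ± SE, 4.5-fold) at day 1, 4.03 ± 0.19 (16.4-fold) at day 3 and 4.17 ± 0.20 (18-fold) at day 7, with limma adjusted p of 1.16e-09, 1.45e-16 and 3.64e-16. The difference from WT sham was 1.39 ± 0.19 (2.62-fold), 2.97 ± 0.20 (7.84-fold) and 3.53 ± 0.20 (11.5-fold), with adjusted p of 9.56e-07, 7.19e-13 and 1.61e-14.

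Kcnn4 (Entrez gene 16534, chromosome 7) encodes the intermediate-conductance calcium-activated channel, known in microglia, macrophages and lymphocytes. KO arrays gave 2.99, 3.21, 3.21 and 3.21 in sham, 4.37, 4.54, 3.99 and 4.54 at day 1, 6.63, 5.56, 7.38, 6.94 and 5.53 at day 3, and 5.86, 4.95, 5.62 and 4.89 at day 7. WT arrays gave 3.49, 4.19, 3.17 and 4.38 in sham, 4.54, 4.54, 4.32, 4.89 and 4.9 at day 1, 6.01, 4.21, 6.28 and 5.61 at day 3, and 5.46, 4.85, 5.78 and 6.38 at day 7. All injured KO arrays lay above the sham KO arrays, which were near the floor, so the KO differences are lower bounds. In WT the day 7 arrays lay above all sham arrays, while those of day 1 and day 3 overlapped with them. Kcnn4 was higher in KO by at least 1.21, 3.26 and 2.18 on the log2 scale at day 1, 3 and 7 (limma adjusted p = 0.0137, 1.68e-08 and 4.98e-05). In WT it rose at day 3 and day 7, by 1.72 ± 0.39 and 1.81 ± 0.39 (adjusted p = 0.000415 and 0.000341). At day 1 the WT difference was 0.83 ± 0.37 (adjusted p = 0.061), and it was called without sham WT replicate 4 (1.02, adjusted p = 0.0366). Kcnn4 passed the filter through its injured arrays, since 2 of the sham arrays reached the log2 level of 4.

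Kcne1l (Entrez gene 66240, chromosome X) encodes a single-pass auxiliary subunit of voltage-gated channels. Its log2 signal in KO was 4.27, 4.4, 4.48 and 4.29 in sham, 3.82, 3.87, 4.16 and 3.87 at day 1, 4.53, 5.31, 4.62, 5.12 and 5.32 at day 3, and 7.94, 8, 7.7 and 7.99 at day 7. The corresponding WT values were 4.28, 3.93, 4.28 and 4.45 in sham, 4.28, 3.77, 3.67, 4.28 and 4.29 at day 1, 4.95, 3.18, 4.82 and 5.54 at day 3, and 8.05, 8.4, 8.08 and 8.1 at day 7. The arrays of sham, day 1 and day 3 lay at or below 5.54 in both genotypes, and every day 7 array lay at or above 7.70. At day 7 Kcne1l was 3.54 ± 0.28 higher (11.7-fold, adjusted p = 2e-11, limma) in KO and 3.93 ± 0.28 higher (15.2-fold, adjusted p = 1.88e-12) in WT than in sham. From day 3 to day 7 the change was 2.93 ± 0.27 in KO (adjusted p = 4.67e-09) and 3.53 ± 0.28 in WT (adjusted p = 4.84e-10). At day 3 it was 0.62 ± 0.27 higher than sham in KO (adjusted p = 0.0429), a call that was lost under 11 of the alternatives, with differences of 0.486 to 0.657. These included leaving out day 3 KO replicate 2, 4 or 5 or any sham KO array. In WT the day 3 difference was 0.39 ± 0.28 (adjusted p = 0.227), and without day 3 WT replicate 2, which read 3.18, it was 0.874 (adjusted p = 0.000294).

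Kcnj8 (Entrez gene 16523, chromosome 6) encodes the pore of the ATP-sensitive channel of pericytes and vascular smooth muscle. In KO the signal was 6.39, 6.23, 5.86 and 6.15 in sham, 6.85, 6.78, 6.77 and 6.84 at day 1, 6.03, 6.68, 6.48, 6.51 and 6.32 at day 3, and 5.86, 5.79, 6.09 and 5.3 at day 7. In WT it was 5.82, 5.63, 5.53 and 5.87 in sham, 6.88, 6.36, 6.63, 6.79 and 6.97 at day 1, 6.54, 7.18, 6.51 and 6.26 at day 3, and 6.09, 5.3, 5.89 and 6.6 at day 7. At day 1 all arrays lay above the sham arrays of their genotype, and by day 7 the groups overlapped. At day 1 Kcnj8 was higher by 0.65 ± 0.21 in KO (1.57-fold, adjusted p = 0.0117, limma) and by 1.01 ± 0.195 in WT (2.02-fold, adjusted p = 9.56e-05). At day 3 it was higher in WT (0.91 ± 0.21, adjusted p = 0.000382), and the KO difference was 0.25 ± 0.195 (adjusted p = 0.274). From day 3 to day 7 it fell by 0.643 in KO (adjusted p = 0.0145) and by 0.650 in WT (adjusted p = 0.0252). Kcne4, which encodes an inhibitory auxiliary subunit, was higher in WT at day 3 (0.60 ± 0.18, adjusted p = 0.00436). Its day 3 WT arrays read 4.29, 5.57, 4.74 and 4.45, against 3.79, 4.12, 4.49 and 4.23 in sham WT, so the groups overlapped. Without the 3 arrays that stood apart, among them day 3 WT replicate 2 at 5.57, the difference was 0.335 (adjusted p = 0.0483).

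Markers of other cell types also moved after injury. The mean of 12 microglia and macrophage markers ran from 6.4 to 6.97 in sham KO, 8.69 to 9.19 on day 1, 10.8 to 11.48 on day 3 and 11.24 to 11.35 on day 7, and in WT from 7.03 to 7.24, 8.96 to 9.46, 10.11 to 10.91 and 11.25 to 11.68. All 12 were called higher at day 3 and day 7 in both genotypes. The mean of the 7 tested pericyte and smooth muscle markers, among them Abcc9, ran from 6.9 to 7.64 in sham KO, 7.63 to 7.8 on day 1, 8.34 to 10.24 on day 3 and 7.66 to 7.91 on day 7, and in WT from 6.37 to 6.87, 7.65 to 7.86, 8.62 to 9.16 and 7.43 to 8.54 at the same stages. The remaining marker of that list, Myh11, stayed below the filter. The pericyte and smooth muscle mean was highest at day 3 in both genotypes. The Kcnj8 difference there was 0.25 in KO (not called) and 0.91 in WT (called higher). The microglia and macrophage mean was above sham at day 1. There Kcnk6 was called higher, at 2.17 in KO and 1.39 in WT, and Kcne1l was at −0.433 and −0.179 and not called. The lymphocyte markers Cd3e, Cd3g and Cd79a were at the floor of 2.17 in all group means, and 0 of the 5 lymphocyte markers on the array passed the filter. Other lists moved too: of 8 endothelial markers 3, 6 and 1 were higher at day 1, 3 and 7 in KO and 8, 8 and 1 in WT, and of 9 oligodendrocyte markers 6, 8 and 5 were lower in KO and 6, 8 and 5 in WT. Of 5 homeostatic microglia markers 0, 2 and 4 were higher and 2, 0 and 0 lower in KO, and 1, 2 and 3 were higher and 2, 1 and 0 lower in WT. Of 5 Schwann cell and root markers 1, 1 and 1 were higher in KO and 5, 2 and 3 in WT, and of 5 neutrophil markers none (0) was higher in either. Of 13 skeletal muscle markers 13, 1 and 12 were lower in KO and 1, 1 and 1 in WT, with array means from 3.66 to 13.33. The part of these shifts in the channel results was not tested.

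**Figure D2:**
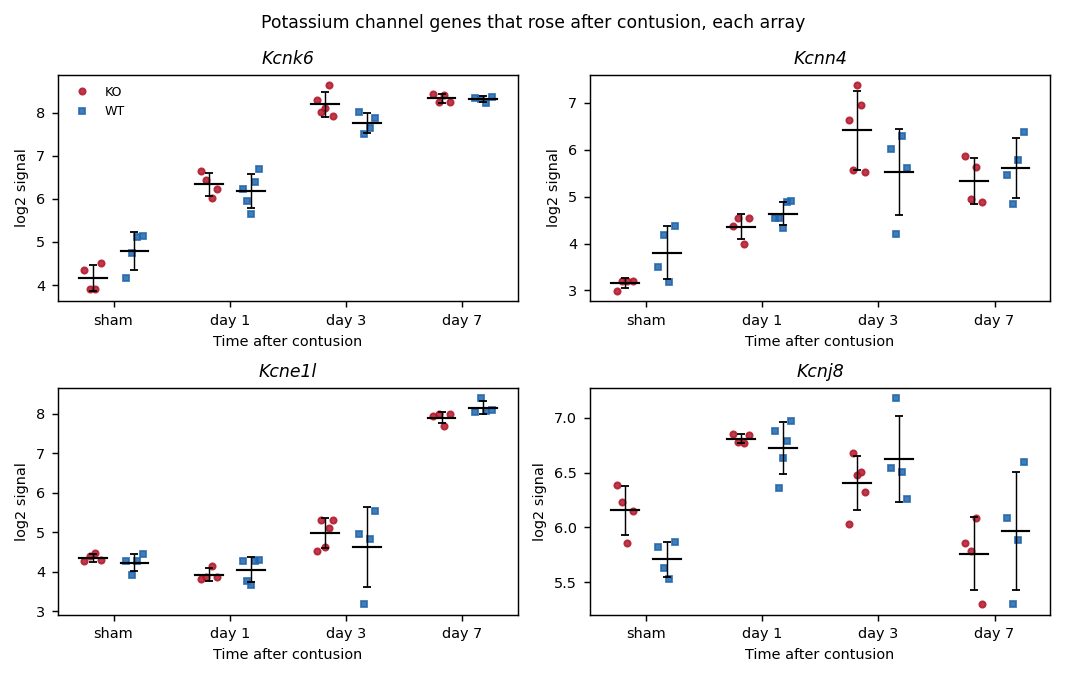
Log2 signal of Kcnk6, Kcnn4, Kcne1l and Kcnj8 on each array in sham cords and at day 1, 3 and 7 after contusion; KO arrays are red circles and WT arrays blue squares, the short line is the group mean and the bars are SD. Kcnk6 climbs from the first day, Kcne1l jumps at day 7 to between 7.7 and 8.4, and Kcnj8 peaks at day 1 in KO.

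Among the Kv1 to Kv4 genes, 11 of 13 were tested. Of these, 6, 9 and 6 fell at day 1, 3 and 7 in KO and 9, 10 and 9 in WT, with none higher. The share of all tested genes called lower was 26.3%, 38.4% and 30.1% in KO and 31.8%, 37.0% and 32.6% in WT. Kcnc1 (Entrez gene 16502, chromosome 7) encodes a Kv3 channel that lets neurons fire at high rates. KO arrays gave 11.86, 12, 11.88 and 11.88 in sham, 11, 11.43, 11.4 and 11.41 at day 1, 10.7, 10.76, 9.26, 9.43 and 10.76 at day 3, and 10.9, 10.86, 10.96 and 10.87 at day 7. WT arrays gave 11.92, 11.95, 11.85 and 11.73 in sham, 10.94, 10.95, 11.24, 10.62 and 11.28 at day 1, 10.46, 9.97, 10.39 and 10.69 at day 3, and 10.75, 10.86, 10.54 and 10.68 at day 7. No injured array overlapped with sham in either genotype, and day 3 KO replicates 3 and 4 gave the lowest signals. The differences were −0.60 ± 0.24, −1.72 ± 0.225 and −1.01 ± 0.24 in KO at day 1, 3 and 7 (limma adjusted p = 0.0413, 1.54e-07 and 0.00097), and −0.855 ± 0.225, −1.48 ± 0.24 and −1.16 ± 0.24 in WT (adjusted p = 0.00226, 5.11e-06 and 0.000182). The KO day 1 call did not hold when any 1 of the arrays compared was left out (−0.635 to −0.494), and the WT day 1 call did not hold with the conflicting arrays grouped by their other labels (−0.634, adjusted p = 0.084). Its relatives Kcnc2 (−1.86 ± 0.27 in KO and −1.501 ± 0.28 in WT at day 3) and Kcnc4 (−0.93 ± 0.14 and −0.97 ± 0.15) fell at every day in both genotypes.

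Kcna1 and Kcna2 encode the Kv1 pore subunits that lie beside the nodes of myelinated axons (Kcna1 is Entrez gene 16485, chromosome 6). The Kcna1 signal in KO was 13.04, 13.18, 13.05 and 13.14 in sham, 12.91, 13.15, 13.29 and 13.23 at day 1, 12.18, 12.52, 11.61, 11.84 and 12.51 at day 3, and 12.46, 12.49, 12.47 and 12.46 at day 7. The corresponding WT values were 13.03, 13.07, 12.97 and 12.97 in sham, 12.84, 12.79, 13.02, 12.84 and 13.16 at day 1, 12.39, 12.79, 12.43 and 12.5 at day 3, and 12.49, 12.53, 12.36 and 12.58 at day 7. At day 1 the injured and sham arrays overlapped in both genotypes, and at day 3 and day 7 all injured arrays lay below sham. Kcna1 differed from sham by 0.04 ± 0.14 in KO and −0.08 ± 0.13 in WT at day 1 (limma adjusted p = 0.824 and 0.636), then fell by 0.97 in KO and 0.478 in WT at day 3 (adjusted p = 2.02e-07 and 0.00321). At day 7 it was lower by 0.63 in KO (adjusted p = 0.00038) and by 0.52 in WT (adjusted p = 0.00211). Kcna2 was lower at day 3 by 1.56 in KO and 1.15 in WT (adjusted p = 3.08e-07 and 6.95e-05). Its day 1 difference was −0.54 ± 0.22 in KO (adjusted p = 0.0523) and −0.67 ± 0.21 in WT (adjusted p = 0.00974), and the KO difference was called under 9 alternatives (−0.63 to −0.488), among them without day 1 KO replicate 3. The WT day 1 call was lost with the conflicting arrays grouped by their other labels (−0.381) or left out (−0.541).

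Kcna4, an A-type Kv1 subunit, was lower at day 3 by 1.21 in KO and 1.43 in WT (adjusted p = 0.000225 and 7.12e-05). At day 7 it read 6.01, 5.97, 6.06 and 6.35 in KO, against 6.63, 6.77, 6.94 and 6.43 in KO sham, and 5.63, 5.83, 5.37 and 4.37 in WT, against 7.18, 7.33, 6.98 and 6.69 in WT sham. All injured arrays lay below sham there, with a difference of −0.60 ± 0.28 in KO (limma adjusted p = 0.0799) and −1.74 ± 0.28 in WT (adjusted p = 8.41e-06). Kcna5, a delayed rectifier subunit, was lower in WT by 1.43, 0.71 and 0.71 at day 1, 3 and 7 (adjusted p = 2.33e-05, 0.0185 and 0.0217). In KO its differences were −0.50 ± 0.26, −0.30 ± 0.25 and −0.19 ± 0.26 (adjusted p = 0.12, 0.291 and 0.574). The A-type somatodendritic genes Kcnd2 and Kcnd3 were at −1.345 and −1.126 at day 3 in KO (adjusted p = 2.96e-05 and 1.68e-06) and at −1.033 and −1.193 in WT (adjusted p = 0.00126 and 2.44e-06). Kcnd1, of the same class, differed from sham by −0.20 to 0.16 with no call, and 15 of the 34 arrays shared 1 value, 4.83. Kcna3 and Kcna7 did not reach the filter.

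Kcnq channels carry the M-current that damps repetitive firing. Of the 3 members 2, Kcnq3 and Kcnq5, were tested and called lower in all 6 comparisons, as 12.6% of all tested genes were. Kcnq3 is Entrez gene 110862 on chromosome 15. In KO the signal was 9.68, 9.82, 9.76 and 9.88 in sham, 9.06, 9.18, 9.11 and 9.18 at day 1, 9.27, 9.43, 8.53, 8.79 and 9.18 at day 3, and 9.39, 9.37, 9.4 and 9.39 at day 7. In WT it was 9.77, 9.88, 9.96 and 10.04 in sham, 8.93, 8.96, 8.85, 8.8 and 9.16 at day 1, 9.26, 8.57, 9.09 and 9.29 at day 3, and 9.12, 9.33, 9.24 and 9.39 at day 7. All injured arrays lay below sham in both genotypes. The differences were −0.65 ± 0.14, −0.74 ± 0.13 and −0.39 ± 0.14 in KO (limma adjusted p = 0.000508, 1.95e-05 and 0.0226) and −0.97 ± 0.13, −0.86 ± 0.14 and −0.65 ± 0.14 in WT (adjusted p = 8.71e-07, 7.18e-06 and 0.000366). The KO day 7 call was lost without sham KO replicate 4 (−0.363). Kcnq5 was lower by 1.315 ± 0.197 in KO and 1.24 ± 0.21 in WT at day 3 (adjusted p = 1.33e-06 and 9.69e-06). Kcnq1 did not reach the filter.

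Of the 6 Kcnh genes 3 were tested, and all 3 were lower at day 3 and day 7 in both genotypes. Of all tested genes 38.4% and 30.1% were lower at these days in KO and 37.0% and 32.6% in WT. Kcnh2, which encodes an ERG channel, fell by 1.48 in KO and 1.56 in WT at day 3 (limma adjusted p = 5.1e-07 and 8.06e-07). Kcnh1, the EAG channel gene, fell by 1.46 in KO and 0.70 in WT at day 3 (adjusted p = 1.89e-05 and 0.0305). Kcnh8, an ELK channel gene, read 4.29, 3.76, 3.83 and 3.86 at day 7 in KO, against 4.82, 4.79, 4.38 and 4.33 in KO sham. In WT it read 3.58, 3.63, 3.27 and 3.70 at day 7, against 5.11, 5.19, 5.25 and 5.03 in WT sham. All day 7 arrays lay below the sham arrays of their genotype, with differences of −0.64 ± 0.21 in KO (adjusted p = 0.013) and −1.60 ± 0.21 in WT (adjusted p = 3.81e-07). Kcnh8 passed the filter mainly through its sham arrays, since the only injured array that reached the log2 level of 4 was day 7 KO replicate 1 (4.29).

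Silent subunits form no channel alone and change the gating of Kv2 partners. Of the 9 such members 4 were tested, among them Kcns2 (Entrez gene 16539, chromosome 15). KO arrays gave 6.34, 6.52, 6.16 and 6.32 in sham, 4.96, 4.98, 4.6 and 4.8 at day 1, 4.83, 4.83, 2.79, 4.11 and 4.78 at day 3, and 5.19, 5.36, 5.35 and 5 at day 7. WT arrays gave 5.92, 6.33, 6.59 and 6.46 in sham, 4.59, 5, 4.97, 3.79 and 5.07 at day 1, 4.8, 4.8, 4.33 and 4.8 at day 3, and 4.8, 5.29, 5.06 and 5.17 at day 7. All injured arrays lay below sham, and day 3 KO replicate 3 was lowest at 2.79. Kcns2 was at −1.502, −2.07 and −1.11 in KO (limma adjusted p = 0.000192, 3.41e-07 and 0.00311) and at −1.636, −1.637 and −1.24 in WT (adjusted p = 2.53e-05, 3.06e-05 and 0.000959). Kcns3 was lower at day 3 by 1.87 in KO and 1.71 in WT (adjusted p = 1.07e-08 and 1.79e-07). Kcng4 differed from sham by −0.13 ± 0.31 in KO and −0.06 ± 0.29 in WT at day 1 (adjusted p = 0.758 and 0.886), and was lower by 1.78 and 1.34 at day 3 (adjusted p = 5.23e-06 and 0.000441).

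**Figure D3:**
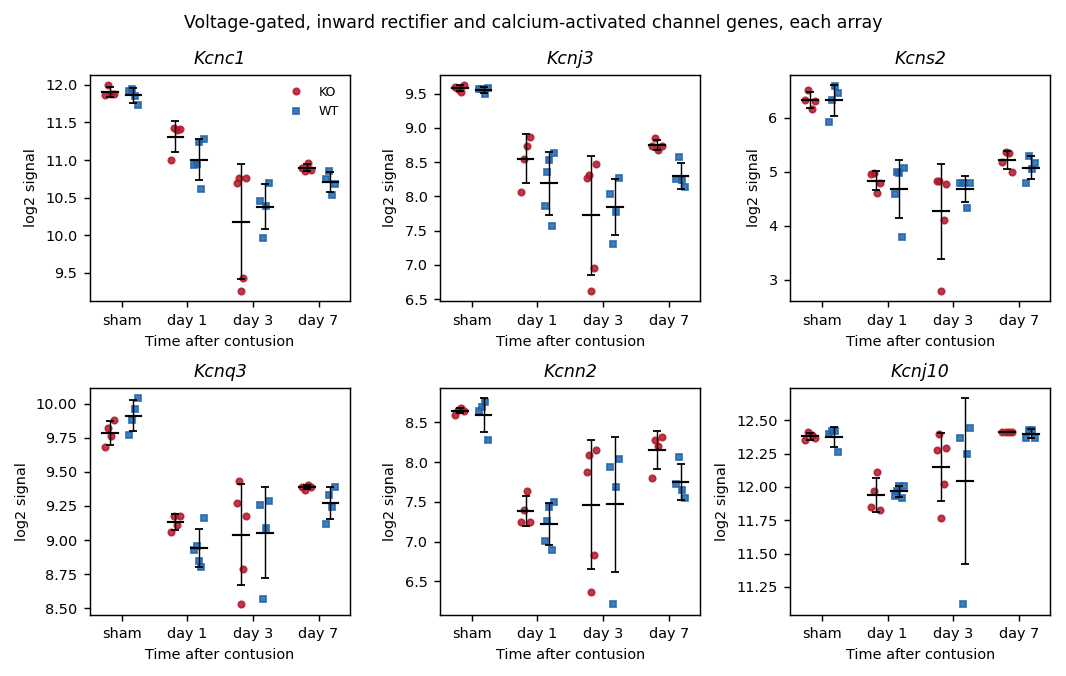
Log2 signal of Kcnc1, Kcnj3, Kcns2, Kcnq3, Kcnn2 and Kcnj10 on each array in sham cords and at day 1, 3 and 7 after contusion; KO arrays are red circles and WT arrays blue squares, the short line is the group mean and the bars are SD. Every injured array of Kcnc1, Kcnj3, Kcns2, Kcnq3 and Kcnn2 lies below the sham arrays of its genotype, while Kcnj10 is back at 12.41 on all 4 day 7 KO arrays.

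Of 15 Kcnj members 9 were tested. At day 1, 3 and 7, 5, 4 and 2 fell in KO and 4, 4 and 4 in WT. The member called higher, at day 1 in KO and at day 1 and day 3 in WT, was Kcnj8. Of all tested genes 26.3%, 38.4% and 30.1% were lower in KO and 31.8%, 37.0% and 32.6% in WT, and the Kcnj counts at day 3 and day 7 lie near these shares. Kcnj3 (Entrez gene 16519, chromosome 2) encodes a G protein-gated channel that lowers neuronal excitability. Its log2 signal in KO was 9.6, 9.57, 9.52 and 9.63 in sham, 8.06, 8.55, 8.73 and 8.87 at day 1, 8.27, 8.31, 6.62, 6.95 and 8.47 at day 3, and 8.73, 8.85, 8.68 and 8.73 at day 7. The corresponding WT values were 9.57, 9.57, 9.5 and 9.59 in sham, 7.86, 8.35, 8.53, 7.57 and 8.64 at day 1, 8.03, 7.3, 7.78 and 8.27 at day 3, and 8.25, 8.58, 8.24 and 8.14 at day 7. No injured array overlapped with sham in either genotype. Kcnj3 was lower by 1.03, 1.86 and 0.835 in KO (limma adjusted p = 0.00588, 1.43e-06 and 0.0209) and by 1.37, 1.71 and 1.26 in WT (adjusted p = 0.000187, 1.44e-05 and 0.000751). Its partner Kcnj9 was lower at day 3 by 1.38 in KO and 1.69 in WT (adjusted p = 0.00216 and 0.000594). At day 7 its difference was −0.63 ± 0.40 in KO (adjusted p = 0.201) and −1.52 ± 0.40 in WT (adjusted p = 0.00218). Kcnj14, known from motor neurons of the rodent brainstem and cord, was lower at day 3 by 1.66 in KO and 1.51 in WT (adjusted p = 4.67e-05 and 0.000327).

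Kcnj10 (Entrez gene 16513, chromosome 1) encodes the channel by which astrocytes and oligodendrocytes take up potassium. In KO the signal was 12.35, 12.41, 12.39 and 12.37 in sham, 11.85, 11.97, 12.11 and 11.83 at day 1, 12.28, 12.4, 11.77, 12.02 and 12.29 at day 3, and 12.41, 12.41, 12.41 and 12.41 at day 7. In WT it was 12.4, 12.42, 12.42 and 12.26 in sham, 11.93, 11.97, 12.01, 11.92 and 12.01 at day 1, 12.37, 11.12, 12.25 and 12.44 at day 3, and 12.37, 12.43, 12.43 and 12.37 at day 7. At day 1 every array lay below sham, at day 3 the groups overlapped, and at day 7 both genotypes lay near sham. Kcnj10 was lower at day 1 by 0.44 in KO and 0.40 in WT (limma adjusted p = 0.0309 and 0.0314). Without day 1 KO replicate 1 or 4, or sham KO replicate 2, 3 or 4, the KO call was lost, and the WT call was lost without day 1 WT replicate 1 or 4 or sham WT replicate 1, 2 or 3. At day 3 the differences were −0.23 ± 0.16 in KO (adjusted p = 0.206) and −0.33 ± 0.165 in WT (adjusted p = 0.0857), with day 3 WT replicate 2 at 11.12, and the WT difference was called without day 3 WT replicate 1 or 4 (−0.435 and −0.461). At day 7 they were 0.032 ± 0.165 in KO and 0.025 ± 0.165 in WT (adjusted p = 0.897 and 0.915). The mean of 9 astrocyte markers ran from 12.34 to 12.44 on day 1, 12.08 to 12.67 on day 3 and 12.8 to 12.82 on day 7 in KO, against 12.49 to 12.58 in sham KO. In WT it ran from 12.32 to 12.42, 11.83 to 12.69 and 12.71 to 12.88, against 12.52 to 12.61 in sham WT. Of the 9, 4, 5 and 0 were called lower and 2, 2 and 3 higher at day 1, 3 and 7 in KO, and 6, 5 and 1 lower and 2, 2 and 3 higher in WT. Their part was not tested.

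Kcnj16, the partner of Kcnj10, was lower at day 1 in KO (−0.735, adjusted p = 0.0168). The WT difference was −0.53 ± 0.23 (adjusted p = 0.0572), which was called without day 1 WT replicate 3 (−0.603). Without day 1 KO replicate 1 the KO difference was −0.640 and not called. Kcnj11, the neuronal ATP-sensitive pore gene, read 7.58 on 25 of the 34 arrays, so its lack of calls says little about a change. Kcnj2, Kcnj4, Kcnj5 and Kcnj6 did not reach the filter.

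Of 12 Kcnk members 6 were tested, and besides Kcnk6 the other 5 were lower at day 3 in both genotypes, where 38.4% of all tested genes were in KO and 37.0% in WT. Of these calls, that of Kcnk13 in KO (−0.417, adjusted p = 0.0304) was lost with no filter and without day 3 KO replicate 1 or 3 or sham KO replicate 1, 2 or 3, and that of Kcnk2 in WT without sham WT replicate 3 (−0.333). Kcnk1 (Entrez gene 16525, chromosome 8) encodes a leak channel known in astrocytes and neurons. KO arrays gave 11.1, 11.22, 11.23 and 11.17 in sham, 10.41, 10.74, 10.94 and 10.88 at day 1, 10.19, 10.53, 9.46, 9.94 and 10.37 at day 3, and 10.45, 10.55, 10.58 and 10.52 at day 7. WT arrays gave 11.13, 11.03, 11.08 and 10.97 in sham, 10.24, 10.43, 10.59, 10.1 and 10.76 at day 1, 10.5, 10.14, 10.32 and 10.39 at day 3, and 10.48, 10.72, 10.46 and 10.47 at day 7. All injured arrays lay below sham in both genotypes. Kcnk1 was lower by 0.44, 1.08 and 0.65 in KO (limma adjusted p = 0.0231, 3.04e-07 and 0.00105) and by 0.63, 0.72 and 0.52 in WT (adjusted p = 0.000735, 0.000232 and 0.0058). Without day 1 KO replicate 1 its KO day 1 difference was −0.324 and not called, and with the conflicting arrays grouped by their other labels its WT day 1 difference was −0.448 and not called. Kcnk2, a mechanosensitive leak channel gene, was lower at day 1, at −0.745 in KO and −0.675 in WT (adjusted p = 0.000418 and 0.000492). At day 7 it differed by −0.09 ± 0.16 and −0.31 ± 0.16 (adjusted p = 0.676 and 0.106), and without day 7 WT replicate 1 the WT difference was called (−0.401). Kcnk13, known as the resting potassium channel of microglia, was lower at day 7 by 0.60 in KO and 0.78 in WT (adjusted p = 0.00658 and 0.000504), at stages where the microglia and macrophage markers were high. Kcnk3, an acid-sensitive leak channel gene, was lower at day 3 by 0.91 and 0.58. Kcnk5 did not reach the filter.

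The calcium-activated class held 8 members, 5 of them tested. Kcnn2 (Entrez gene 140492) encodes a small-conductance channel of the afterhyperpolarization. Its log2 signal in KO was 8.6, 8.66, 8.68 and 8.65 in sham, 7.25, 7.4, 7.64 and 7.24 at day 1, 7.88, 8.09, 6.37, 6.83 and 8.15 at day 3, and 7.8, 8.28, 8.2 and 8.32 at day 7. The corresponding WT values were 8.64, 8.69, 8.76 and 8.28 in sham, 7.01, 7.26, 7.43, 6.89 and 7.5 at day 1, 7.94, 6.21, 7.69 and 8.04 at day 3, and 7.72, 8.07, 7.65 and 7.55 at day 7. All injured arrays lay below sham in both genotypes, and day 1 held the lowest group means. Kcnn2 was lower at day 1 by 1.26 in KO and 1.37 in WT (limma adjusted p = 0.00197 and 0.000393), and at day 3 by 1.18 and 1.12 (adjusted p = 0.00104 and 0.00309). At day 7 the difference was −0.50 ± 0.32 in KO (adjusted p = 0.202) and −0.85 ± 0.32 in WT (adjusted p = 0.0252). The WT day 7 call was lost without any 1 of day 7 WT replicates 3 and 4 and sham WT replicates 2 and 3, at −0.813 to −0.779. Kcnma1 encodes the large-conductance BK channel. At day 3 its probe set of highest mean was lower by 1.17 in KO and 0.81 in WT (limma adjusted p = 3.64e-08 and 2.83e-05). Only 2 of its 5 tested probe sets were called lower there in each genotype. Their differences ran from −1.34 to −0.002 in KO and from −1.43 to 0.089 in WT, over all 5. The 5 probe sets also differed in sign in some other comparisons. Of the BK subunits, Kcnmb2 fell in all 6 comparisons. Kcnmb4 was lower at day 3 in KO by 0.477 (adjusted p = 0.000505), with a WT difference of 0.08 ± 0.12 (adjusted p = 0.59). Kcnn1 and Kcnn3 did not reach the filter.

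The sodium-activated genes Kcnt1 and Kcnt2 and the Slo3 gene Kcnu1, known from mouse sperm, were all tested. Kcnt2 was lower at day 1 by 1.41 in KO and 1.53 in WT (limma adjusted p = 1.63e-05 and 1.67e-06), with −0.53 ± 0.23 in KO (adjusted p = 0.0618) and −1.05 ± 0.23 in WT (adjusted p = 0.000412) at day 7. Kcnt1 had day 1 differences of −0.20 ± 0.23 in KO and −0.46 ± 0.22 in WT (adjusted p = 0.498 and 0.0709) and was lower at day 3 by 1.18 and 1.16. Kcnu1 was lower at day 3, at −0.834 in KO and −1.196 in WT (adjusted p = 2.75e-06 and 3.15e-08).

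Of 12 auxiliary genes 9 were tested. At day 1, 3 and 7, 2, 6 and 6 fell in KO and 3, 6 and 6 in WT. Of all tested genes 26.3%, 38.4% and 30.1% were lower in KO and 31.8%, 37.0% and 32.6% in WT, and the auxiliary counts at day 1 lie near these shares. Kcnip4 (Entrez gene 80334, chromosome 5) encodes a calcium sensor that binds Kv4 channels. In KO the signal was 9.77, 9.74, 9.79 and 9.75 in sham, 8.43, 8.81, 8.97 and 8.66 at day 1, 8.18, 8.26, 7.09, 7.24 and 8.52 at day 3, and 8.74, 8.91, 8.93 and 8.92 at day 7. In WT it was 9.89, 9.82, 9.76 and 9.87 in sham, 8.28, 8.63, 8.84, 8.31 and 8.83 at day 1, 8.19, 8.04, 8.11 and 8.38 at day 3, and 8.48, 8.91, 8.6 and 8.44 at day 7. All injured arrays lay below sham, with the lowest signals in day 3 KO replicates 3 and 4. Kcnip4 was at −1.05, −1.905 and −0.89 in KO (limma adjusted p = 0.000171, 2.33e-09 and 0.00087) and at −1.26, −1.65 and −1.23 in WT (adjusted p = 5.44e-06, 1.17e-07 and 1.63e-05). Kcnip1 was lower at day 3 by 1.59 in KO and 1.25 in WT (adjusted p = 3.34e-05 and 0.0011). Kcnip2 also fell in all 6 comparisons, but its level after injury lay near the floor at KO day 3 and at WT day 1, day 3 and day 7, so the differences of −1.12 in KO and −1.27, −1.24 and −1.24 in WT are lower bounds in size there. Kcnip2 passed the filter through its sham arrays alone, since no injured array reached the log2 level of 4. Kcnip3 read 5.02 on 16 of the 34 arrays and was lower at KO day 7 by 0.316 (adjusted p = 0.025), a call lost without day 7 KO replicate 1 or 4 or sham KO replicate 3 (−0.223, −0.255 and −0.283). It was not called in the other 5 comparisons, where its second tested probe set reached −0.541 (KO day 3) and was not called either.

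The Kv1 partners Kcnab1 and Kcnab2 encode cytoplasmic beta subunits. Kcnab1 was lower at day 3 by 1.63 in KO and 1.26 in WT (limma adjusted p = 4.7e-07 and 5.51e-05), and Kcnab2 by 1.16 and 1.00 (adjusted p = 2.17e-07 and 6.89e-06). At day 1 neither was called at its probe set of highest mean, with Kcnab1 at −0.46 ± 0.24 in KO and −0.52 ± 0.23 in WT (adjusted p = 0.121 and 0.0545) and Kcnab2 at −0.18 ± 0.16 and −0.26 ± 0.15 (adjusted p = 0.389 and 0.156). A second probe set of each was called lower at day 1, at −0.908 in KO and −0.958 in WT for Kcnab1 and at −0.74 and −0.509 for Kcnab2. Kcnab1 was called at day 1 in WT under 10 alternatives (−0.741 to −0.514), among them leaving out day 1 WT replicate 3 or 5. The antisense transcript Kcnq1ot1, which encodes no channel, was lower at day 3 by 0.476 in KO and 0.382 in WT (adjusted p = 0.000974 and 0.0102). Among 18 genes with several tested probe sets, the probe sets shared 1 sign in 13 genes at KO day 1 and in 16 to 18 genes in each other comparison with sham, and none was called both ways (0).

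Neighbouring stages were compared within each genotype. From day 1 to day 3, 25 genes fell and 3 rose in KO, where 30.2% and 22.8% of all tested genes did, and 12 fell and 2 rose in WT, where 16.1% and 14.7% did. The WT split was 8 lower and 8 higher without the 3 arrays that stood apart, and 17 lower and 8 higher with array weights. From day 3 to day 7, 21 genes rose and 2 fell in KO, against 18.3% and 15.7% of all tested genes, while 1 rose and 1 fell in WT, against 10.2% and 11.4%. The genes that rose again in KO included Kcnip4 (1.02 ± 0.195, limma adjusted p = 0.000341), Kcnj3 (1.02 ± 0.28, adjusted p = 0.00738), Kcns2 (0.955 ± 0.283, adjusted p = 0.0126) and Kcnc2 (0.93 ± 0.27, adjusted p = 0.0105). The KO count of 23 depended on single arrays: it was 8 without day 3 KO replicate 3, and 8 without day 3 KO replicate 4. It was 10 without the 3 arrays that stood apart, and 12, 14 and 13 without day 7 KO replicate 2, 3 or 4. Day 3 KO replicates 3 and 4 had the lowest neuron marker means, 10.56 and 10.77, against 11.15 to 11.5 on the other day 3 KO arrays, and replicate 3 had a skeletal muscle marker mean of 13.33. In WT the count of 2 was 1 without day 3 WT replicate 2 or day 7 WT replicate 2 or 3, and 4 without day 3 WT replicate 4.

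**Figure D4:**
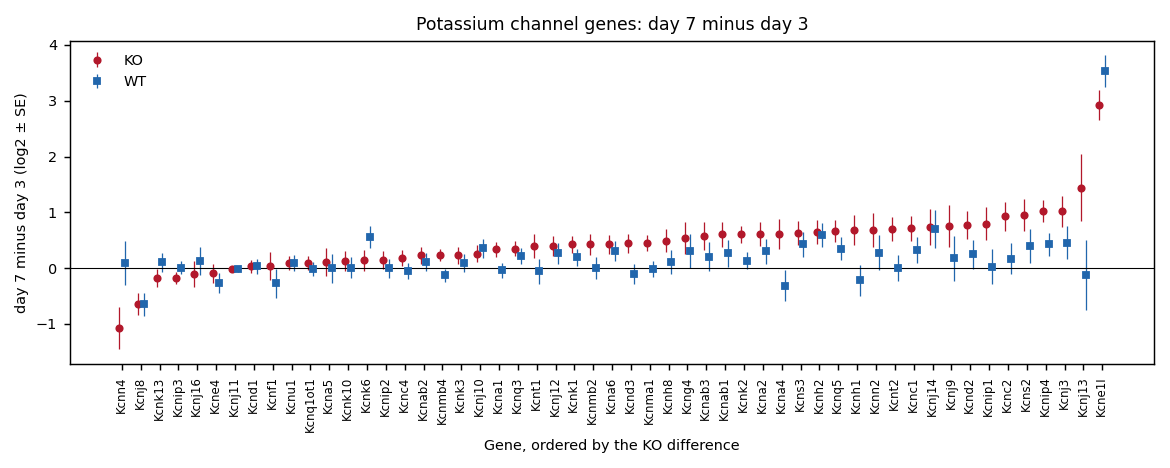
Log2 difference between day 7 and day 3 for each of the 53 tested genes, ordered by the KO difference; red circles are KO, blue squares WT, and the bars are limma's SE. Kcne1l stands alone at the right at 2.93 in KO and 3.53 in WT, and most other KO points lie above 0 with WT points nearer to it.

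The difference of these steps between genotypes was tested directly, in comparisons added after the values were seen. None of the 53 genes passed (0), for day 1 to day 3 or for day 3 to day 7; 8 and 9 genes had an unadjusted p under 0.05, and 0.634% and 0.00834% of all tested genes were called. The smallest p for day 1 to day 3 was that of Kcna1, at −0.61 ± 0.18 (adjusted p = 0.138, limma).

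The KO and WT cords were then compared at the same stage, which asks how loss of trkB.T1 bears on these genes. No member was called (0 of 53) in sham, at day 1, at day 3, at day 7 or for the mean of the 4 conditions, where 0.0667%, 0.709%, 0.0334%, 0.0334% and 0.133% of all tested genes were. In this limma test 5, 3, 7, 6 and 1 members had an unadjusted p under 0.05, and without the 3 arrays that stood apart 3, 7, 0, 8 and 2 did, with none called (0). In sham the smallest p was that of Kcnk6, at −0.62 ± 0.20 (KO minus WT, adjusted p = 0.738), followed by Kcnh8 at −0.565 ± 0.209 (adjusted p = 0.904) and Kcnmb4 at 0.28 ± 0.12 (adjusted p = 1). Sham KO cords read 4.34, 3.91, 3.91 and 4.51 for Kcnk6, against 4.17, 4.74, 5.12 and 5.13 in sham WT cords, and the groups overlapped.

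At day 1 Kcna5 came nearest to a call. It read 4.85, 5.31, 4.58 and 4.88 in KO cords, against 3.77, 4.77, 4.72, 3.15 and 3.70 in WT cords, and 1 KO array lay within the WT range. The difference was 0.88 ± 0.25 (adjusted p = 0.118, limma), and without day 1 WT replicate 2 or 3 it was called, at 1.07 and 1.06. Averaged across the 4 conditions, its KO minus WT difference was 0.42 ± 0.13 (adjusted p = 0.305). Kcnc4 at 0.31 ± 0.14 and Kcnk1 at 0.32 ± 0.15 came next at day 1 (adjusted p = 0.506 and 0.515). At day 3 the smallest p were those of Kcna1 (−0.40 ± 0.13, adjusted p = 0.369), Kcnh1 (−0.71 ± 0.26, adjusted p = 0.397) and Kcnmb4 (−0.27 ± 0.11, adjusted p = 0.414). At day 7 they were those of Kcna4 (0.79 ± 0.28, adjusted p = 0.908), Kcnmb2 (0.48 ± 0.20, adjusted p = 1) and Kcnt2 (0.50 ± 0.23, adjusted p = 1). The day 7 arrays of Kcna4 did not overlap between KO (5.97 to 6.35) and WT (4.37 to 5.83).

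The difference in injury response between the genotypes was called for none of the 53 genes (0) at day 1, day 3 or day 7, where 0.108%, 0.00% and 0.00834% of all tested genes were, and 6, 6 and 6 members had an unadjusted p under 0.05. Kcnk6 had the smallest p at day 1 and day 3: its response was 0.78 ± 0.28 larger in KO at day 1 (limma adjusted p = 0.624) and 1.06 ± 0.28 larger at day 3 (adjusted p = 0.573). In sham the Kcnk6 mean was 4.17 in KO and 4.79 in WT, and at day 1 it was 6.34 in KO and 6.18 in WT. The KO minus WT response difference of the 12 microglia and macrophage markers had a median of 0.081 (−0.551 to 0.744) at day 1. At day 3 the marker median was 0.871 (0.408 to 1.106). None of these markers was called (0) at either day, and their part in the Kcnk6 values was not tested. At day 3 Kcnmb4 (−0.55 ± 0.16, adjusted p = 0.646) and Kcnn4 (1.54 ± 0.54, adjusted p = 0.733) followed, and Kcnn4 was at 0.871 without the 3 arrays that stood apart. At day 7 Kcnh8 (0.96 ± 0.30, adjusted p = 0.947) and Kcna4 (1.15 ± 0.395, adjusted p = 1) had the smallest p. These misses do not show that the genotypes responded alike.

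**Figure D5:**
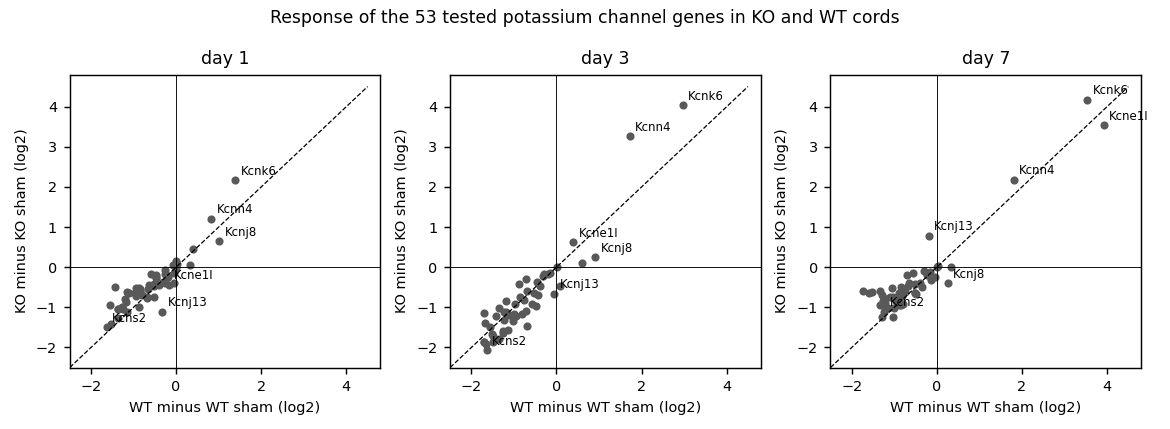
Log2 difference from sham in KO cords (vertical axis) against that in WT cords (horizontal axis) for the 53 tested genes at day 1, day 3 and day 7, with equal responses on the dashed line. Kcnk6 lies above the line at all 3 days, at 4.03 in KO and 2.97 in WT on day 3, and most genes lie to the lower left, below 0 in both genotypes.

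Other genes of potassium handling were looked at from a list of 26 pump, cotransporter, HCN and channel-partner genes, of which 19 were on the array and 16 tested. At day 1, 3 and 7, 9, 11 and 10 of the 16 were lower and 1, 3 and 3 higher in KO, and 11, 11 and 8 were lower and 1, 4 and 3 higher in WT. Of all tested genes, 26.3%, 38.4% and 30.1% were lower and 23.1%, 30.7% and 22.9% higher in KO. In WT 31.8%, 37.0% and 32.6% of all tested genes were lower and 26.6%, 29.0% and 25.4% higher. The Kv4 partners Dpp6 and Dpp10 were lower at day 3: Dpp10 was at −1.95 in KO and −1.72 in WT at day 3, and Dpp6 at −1.43 and −1.29. Cntnap2, which clusters Kv1 channels beside nodes, was at −1.83 in KO and −1.30 in WT, and Slc12a5, the neuronal potassium-chloride exporter gene, at −1.42 and −1.203. Slc12a4, a potassium-chloride cotransporter gene, was higher in all 6 comparisons (0.81 in KO and 1.27 in WT at day 3), and Slc12a7 was higher at day 3 and day 7 (1.595 in KO and 1.33 in WT at day 3). The sodium pump subunit gene Atp1b1 was lower at day 3 by 0.975 in KO and 0.89 in WT. Atp1b3 was lower at day 1 by 0.314 and 0.214, and higher at day 7 by 0.366 and 0.54, and Abcc9, the partner of Kcnj8, was called higher in WT at day 3 (0.888) and lower in KO at day 7 (−0.74, limma adjusted p = 0.0386).

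The other 31 members did not reach the filter, with a highest single value of 4.76. In 20 of these 31 all 34 arrays lay within 0.5 of the lowest value, 2.17, so changes of these genes could not be measured on this array.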

How the data were processed

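RNA of 34 spinal cords was hybridised to Affymetrix mouse expression arrays, labelled as biological replicates; nothing here shows more about their independence, so p-values measure the spread between these samples. The deposited values are log2 expression values made by GCRMA, per the submitters' processing notes, with the version not given in the sources used here; that the scale is log2 was read from the values, 2.17 to 15.9. Array medians lay between 4.14 and 4.39, and the values were not normalized again. Of 45101 probe sets, 64 control probe sets were left out, and 24573 that reached log2 4 in at least 4 arrays were tested. Symbols came from the platform annotation: 34958 probe sets had 1 symbol, 932 several and 9211 none listed. No 2 arrays were identical (0 pairs).

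A linear model with 8 group means over all 34 arrays was fitted in limma 3.58.1 (R 4.3.3; lmFit and eBayes, 26 residual and 2.62 prior degrees of freedom). Tests were two-sided, with Benjamini-Hochberg adjustment over all tested probe sets and calls at an adjusted p under 0.05. The fit was tested on simulated data. A difference with a group mean below 3.17 is a lower bound in size. Groups follow the titles; the 2 arrays titled day 1 WT with conflicting fields were regrouped or left out as alternatives. Other alternatives were filters, probe set means, array weights, an intensity trend with a robust prior, centring, quantile normalization, a fit of the groups compared alone, a replicate block and leaving out single arrays; leaving out 3 arrays that stood apart was chosen after seeing the data. The genes given with full statistics were the 5 largest called differences in each direction for each injury comparison, the 3 smallest p for each genotype or injury-by-genotype comparison, and a list of channels given whatever their values; any other member could be named for a class. The members, the potassium handling list and the marker lists (neuron, astrocyte, oligodendrocyte, microglia and macrophage, homeostatic microglia, neutrophil, lymphocyte, endothelial, pericyte and smooth muscle, skeletal muscle, Schwann cell and root) were chosen with earlier results of these data known. Promoter windows came from RefSeq (GRCm38.p6).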

Additional observations from a re-analysis of the deposited data

Results flagged for a closer look

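Among 304 gene and group pairs over 38 genes, 23 had 1 array far from the others of its group by Dixon's test, where chance flags about 1 in 20. Values are log2 signals, and no explanation was tested.

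In day 3 WT, replicate 2 read low for Kcnj10 (11.12, others 12.25 to 12.44), Kcnab2 (8.77, others 9.05 to 9.09) and Kcnu1 (4.34, others 4.97 to 5.01). In the same group replicate 1 read 4.86 for Kcnip3 (others 5.02) and replicate 3 read 4.33 for Kcns2 (others 4.8). In day 3 KO, replicate 3 read 4.54 for Kcnip3 (others 5.02), and replicate 4 read 4.5 for Kcne4 (others 4.34 to 4.37).

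In day 1 KO, replicate 1 read 11.0 for Kcnc1 (others 11.4 to 11.43) and 7.09 for Kcnj16 (others 7.46 to 7.47). Replicate 3 there read high for Kcne1l (4.16, others 3.82 to 3.87), Kcnip3 (5.16, others 5.02) and Kcnk13 (7.36, others 7.02 to 7.06), and replicate 4 read 4.67 for Kcnmb2 (others 4.97 to 4.98).

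In day 7 WT, replicate 1 read 3.49 for Kcnj9 (others 4.9 to 5.09), and replicate 2 read 8.4 for Kcne1l (others 8.05 to 8.1) and 10.72 for Kcnk1 (others 10.46 to 10.48). In day 7 KO, replicate 1 read 8.74 for Kcnip4 (others 8.91 to 8.93).

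In sham KO, replicate 1 read 2.99 for Kcnn4 (others 3.21), replicate 2 read 12.0 for Kcnc1 (others 11.86 to 11.88), and replicate 4 read 7.39 for Kcnk13 (others 7.53 to 7.54). In sham WT, replicate 1 read 6.45 for Kcnh1 (others 6.64 to 6.68), replicate 3 read 7.32 for Kcnc4 (others 7.46 to 7.47), and replicate 4 read 12.26 for Kcnj10 (others 12.4 to 12.42).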

How the results depend on the processing

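The cause of the changes below was not tested. Grouping the 2 conflicting arrays by their other labels gave 20 calls for WT day 1 minus sham (32 with the titles), 8 for WT day 3 minus day 1 (14), 1 for WT day 7 minus day 3 (2) and 13 for KO day 7 minus day 3 (23). Array weights gave 25, 4 and 13 for the last 3 of these comparisons. The KO day 7 minus day 3 count was 14 with no filter, 4 with the compared groups alone and 10 without the 3 arrays that stood apart, and KO day 3 minus day 1 gave 18 (28) with the compared groups alone. WT day 7 minus day 3 gave 4 with a filter of log2 6 and 1 without the 3 arrays.

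With single arrays left out, counts against sham were 23 to 26, 41 to 42 and 30 to 33 at KO day 1, 3 and 7, and 31 to 34, 42 to 46 and 37 to 42 in WT. They were 22 to 30 and 8 to 32 for KO day 3 minus day 1 and day 7 minus day 3, and 9 to 13 and 1 to 4 for WT (9 without day 1 WT replicate 5). Genotype counts were 0 to 1 at day 1 and 0 to 0 elsewhere, as were those for injury by genotype. Deviations of same-numbered arrays from their group means had a median r of 0.005 over 113 pairs (−0.454 to 0.43, 21 above 0.1). For 392 other pairs the median was −0.004 (−0.421 to 0.517, 82 above 0.1). A median near 0 cannot settle whether some replicate numbers pair samples, and the titles do not say. With the number as a replicate block, counts against sham were 30, 42 and 35 in KO and 36, 44 and 42 in WT. The block gave 29 and 31 for the KO steps, 10 and 4 for the WT steps, and 0 for genotype and interaction.

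Of 195 gene comparisons, 140 kept call and direction under all alternatives, 22 lost a call, 26 gained one and 7 turned sign. The sign turned only in uncalled values near 0. At WT day 1 Kcnmb4 was at 0.005 with array weights, 0.083 with the other grouping and 0.034 without the conflicting arrays, and −0.127 to 0.037 with single arrays left out. At WT day 7 it was at 0.028 with array weights and −0.119 to 0.021 with single arrays left out. Kcnip3 at WT day 1 was at −0.008 after centring, −0.079 after quantile normalization, −0.016 without the conflicting arrays and −0.039 to 0.09 with single arrays left out, and −0.046 to 0.024 at KO day 1. Kcna1 was at 0.044 at WT day 1 with the other grouping and −0.004 to 0.12 at KO day 1 with single arrays left out, and Kcnj10 at −0.014 to 0.039 at WT day 7. No scaling shifted the median of all genes by more than 0.046. Genes near the floor could not be measured.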
